A study of Microcebus murinus with 18 samples.

Results

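The temporal cortex of 2 aged grey mouse lemurs with an Alzheimer-like brain pathology, named AD-like, was compared with that of 6 young adults. The grey mouse lemur, Microcebus murinus, is a small primate in which some old animals develop β-amyloid plaques. The 8 arrays were chosen by their labels from the 18 of the series, and the 10 arrays of healthy old animals took no part in the comparison. Both AD-like animals, F1 and F2, were old females. Histology in the study had shown plaques and cortical atrophy in these animals. The young adults were 4 females, F1 to F4, and 2 males, M1 and M2. All animals had been born in captivity. RNA from each animal was hybridized to its own human HG-U133 Plus 2.0 array, on which a probe set is a group of short probes designed for a transcript or for several related ones. Old age and the AD-like pathology occur in the same animals, so their parts in any difference from young adults cannot be told apart here.

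The temporal cortex, linked to the hippocampus and needed for memory, is among the regions that Alzheimer's disease affects early in humans. In that disease the amyloid precursor protein APP is cut by the β-secretase BACE1 and by the γ-secretase, which contains a presenilin, and the resulting peptide aggregates into plaques. The microtubule protein tau, encoded by MAPT, is phosphorylated by kinases such as GSK3B and CDK5 and forms tangles. Synapse loss, altered protein degradation and activation of microglia and astrocytes accompany these lesions. In a tissue sample, fewer cells of a type and less RNA per cell cannot be told apart.

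The arrays differed in brightness within each group. Mean signal was 197.2 in AD-like F1 and 163.6 in F2, against 151.4 to 220.3 in young adults. A signal of at least 100 was found for 14570 probe sets in AD-like F1 and for 17101 in F2, against 12800 to 17887 in young adults (two-sided exact permutation test, p = 0.857). The 28 ways of choosing 2 of 8 arrays allow no p below 0.0357. AD-like F2 and young adult M2 differed from the other 6 arrays in that they carried no added poly-A control RNA. Over the 15000 brightest probe sets AD-like F2 was most like M2 (Spearman correlation 0.76). AD-like F1 was most like young adult F1 (0.805), and the 2 AD-like arrays correlated at 0.675. In AD-like F2 the 3′ over 5′ signal ratio of β-actin was also -0.465 on the log2 scale. This lay above the young adult range of -3.06 to -1.55, whereas F1 had -2.50 (two-sided exact permutation test, p = 0.214). The highest young adult value, -1.55, belonged to M2, the other array without control RNA. The same ratio of GAPDH was 0.607 in F2 and 0.324 in F1 (two-sided exact permutation test, p = 0.429). Both lay within the young adult range of 0.144 to 0.681. Such ratios are a sign of RNA integrity, but the β-actin ratio was negative in all 8 arrays. Whether it reflects RNA integrity with these human probes was not tested. The part of the absent control RNA and of the β-actin ratio in the results was not tested, and key values are given for each AD-like animal. All 8 neuronal markers, such as SNAP25, SYT1 and STMN2, gave at least 100 in all 8 arrays. Of 8 microglial markers, 1, P2RY12, was among the brighter probe sets analysed, and CX3CR1 and AIF1 stayed below 100 in every array. The astrocyte marker GFAP reached at most 54.4 in AD-like animals and 127 in young adults, so gliosis could not be read from this gene with these human probes. The choroid plexus gene TTR varied widely, with 543 and 2669 in AD-like animals against 13.1 to 23832 in young adults. Over the 12 cell type marker lists, which also covered interneurons, oligodendrocytes and their precursors, vessels, meninges, blood and neighbouring regions, GLUL was the 1 marker called, and it is described with the astrocyte genes.

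No probe set passed the adjustment for multiple testing in the comparison of AD-like with young adult animals. Among the 15000 brightest probe sets, limma gave 113 higher (0.753%) and 412 lower (2.75%) in AD-like animals with a p under 0.05 before adjustment, and the smallest adjusted p was 0.317. Together these were 525 probe sets, or 3.5%, whereas 750 would pass the same threshold if no probe set differed. The lower probe sets outnumbered the higher ones on the log2 scale and the share of higher ones was 21.5%. This split depended on scale and filter. It was 10.9% after median centring, 60.6% with the methods' t-test on linear signals and 58.9% when dim probe sets were included. It also depended on single arrays. Where an AD-like array was left out, the spread came from the young adults alone and the remaining AD-like array was assumed to vary as they do, with 38 higher and 535 lower once AD-like F2 was left out, 127 and 744 once F1 was, and 223 and 468 without young adult M2. In the 6 arrays that carried poly-A controls, where AD-like F1 is the only AD-like array, 51 were higher and 545 lower.

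The deviations of the 2 AD-like animals from the young adults were compared probe set by probe set. The signals of both lay above the young adult range for 413 probe sets (2.75%) and below it for 433 (2.89%). AD-like F1 alone lay above that range for 1671 probe sets and below it for 1789. AD-like F2 did so for 2144 and 2348. For 216 probe sets F1 lay above and F2 below the range, and for 257 the order was opposite. Across the 15000 probe sets the deviations of F1 and F2 from the young adult mean had the same sign for 52.1% and a Pearson correlation of 0.064. This correlation is across probe sets, which are not independent, and both deviations subtract the same young adult mean, which by itself makes such a correlation positive.

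**Figure D1:**
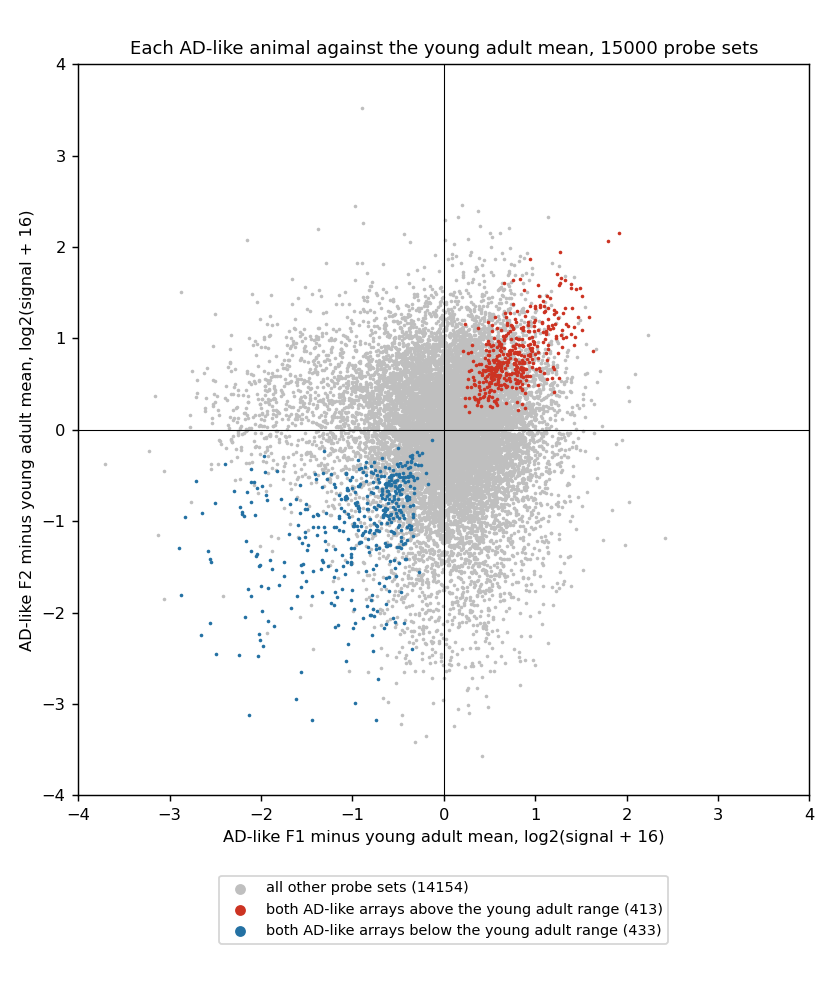
Each point is 1 of 15000 probe sets, with the difference of AD-like F1 (x axis) and of AD-like F2 (y axis) from the mean of 6 young adults on the log2(signal + 16) scale. Red marks the 413 probe sets with both AD-like arrays above the young adult range and blue the 433 with both below it, and the cloud shows little slope (Pearson correlation 0.064).

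The 12 lower probe sets with the smallest p, among those with both AD-like animals below the young adult range, belonged to genes of varied function. The lowest p belonged to NKAIN1, a membrane protein that interacts with the sodium pump. Its signal was 22.8 in AD-like F1 and 36.0 in F2 against 163 to 289 in young adults (median 250.4), a log2 difference of -2.45 (SE 0.37). A wide gap separated both AD-like animals from every young adult. In limma its unadjusted p was 2.12e-05 and its adjusted p 0.317, and the adjusted p ranged from 0.112 to 0.855 with offsets of 1 and 50 in place of 16. MRPL48, a protein of the large mitochondrial ribosomal subunit, gave 4.68 and 27.7 against 100.2 to 176 (log2 difference -2.34, SE 0.40, adjusted p = 0.324 in limma). HTR4, a serotonin receptor that raises cAMP, gave 59.6 and 41.9 against 126.5 to 429 (log2 difference -2.18, SE 0.46). PTPRF, a receptor tyrosine phosphatase of axons and synapses, gave 38.5 and 11.4 against 93.85 to 396 (log2 difference -2.62, SE 0.54). Its other 2 probe sets were also lower on average, by -0.81 and -1.10, but overlapped the young adult range. FN1, the matrix protein fibronectin, gave 42.0 and 113 against 193 to 457 (log2 difference -1.99, SE 0.44). RNF185, a ubiquitin ligase of the endoplasmic reticulum, gave 45.6 and 67.25 against 179.5 to 561 (log2 difference -2.34, SE 0.47). RMND1, needed for mitochondrial translation, gave 18.1 and 25.8 against 74.4 to 211. POU3F3, a transcription factor of cortical neurons, gave 13.75 and 14.6 against 54.2 to 301. BAZ2A, which silences ribosomal RNA genes, gave 18.2 and 57.2 against 129 to 221. The 12 leading lower probe sets were completed by TMEM161A, HYI and IGKV1OR2-118. All 12 had log2 differences between -2.62 and -1.97, adjusted p values of at most 0.694, and AD-like signals between 4.68 and 113. In 7 of them both AD-like signals lay under the median of their own array, and the size of a difference from so dim a signal depends on the offset. With offsets of 1 and 50 it was -3.43 and -1.52 for MRPL48, -3.32 and -1.90 for PTPRF, and -3.30 and -1.68 for POU3F3.

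The leading higher probe sets were smaller in difference, and most were dim in young adults. DLG3, a scaffold of NMDA receptors in the postsynaptic density, gave 271 in AD-like F1 and 320.3 in F2 against 20.3 to 203 in young adults (median 49.2), a log2 difference of 2.04 (SE 0.585, unadjusted p = 0.00435 in limma). The log2 difference of DLG3 was 1.92 within the arrays with poly-A controls and 2.14 within those without them. Its sign in both was fixed by the way the probe sets were chosen. Its 2 other probe sets, which were brighter, differed by 0.02 and -0.33 and overlapped the young adult range. ZBTB11, a zinc finger transcription factor, was the brightest of the 12, with 478 and 473 against 185 to 275.5 (log2 difference 1.08, SE 0.35, unadjusted p = 0.00922 in limma). Its AD-like values were nearly identical and all young adults were clearly lower. NPEPPS, a cytosolic aminopeptidase, gave 269 and 329 against 11.1 to 179 (log2 difference 1.93, SE 0.63). XPO1, which exports proteins from the nucleus, gave 179 and 227 against 30.4 to 163, so that AD-like F1 lay close to the highest young adult. BAHD1, a heterochromatin protein, gave 205 in both AD-like animals against 37.1 to 142. ADGRL3, an adhesion receptor of synapses also called latrophilin 3, gave 162 and 174 against 40.2 to 111. EVI5L, ADIRF, ASB8, NTPCR, DNAH1 and TCEAL9 completed the 12. Their log2 differences lay between 1.08 and 2.04, and the adjusted p was 0.999 for each. For 11 of the 12 the young adult median was under 100.

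**Figure D2:**
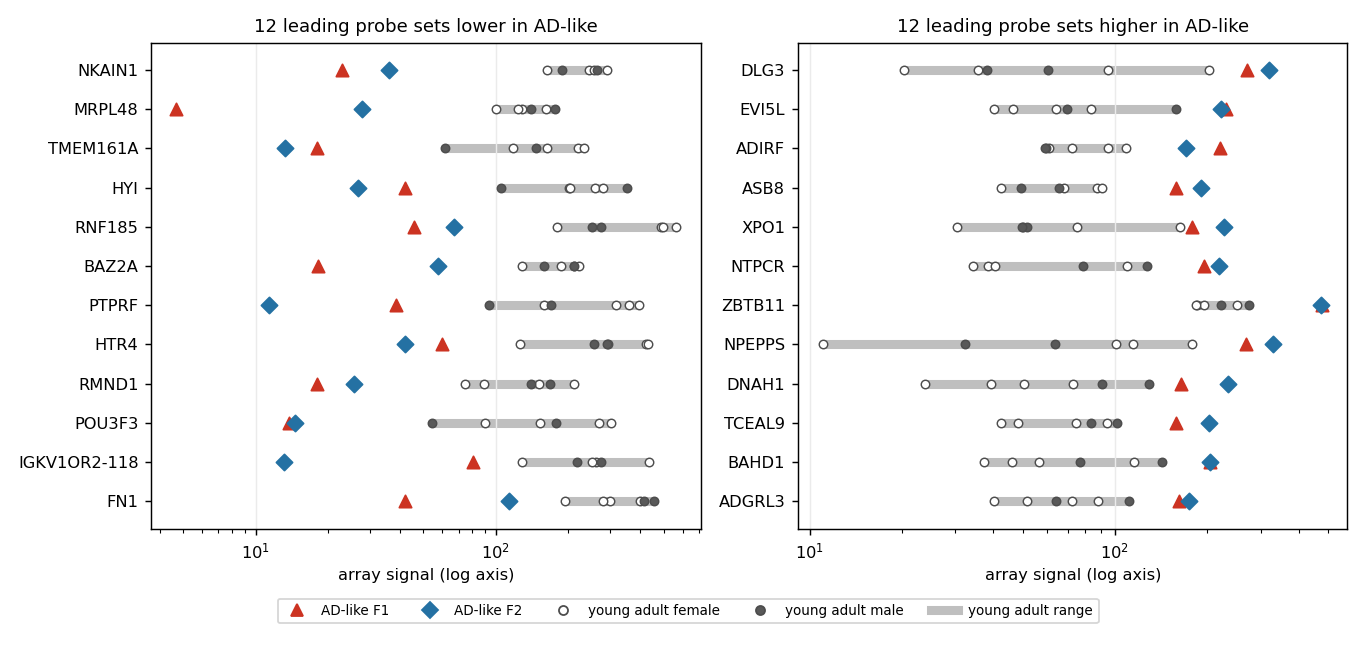
Signal on a log axis of the 12 lower (left) and 12 higher (right) leading probe sets in each animal, with AD-like F1 as triangles, AD-like F2 as diamonds, young adults as circles and the young adult range as a bar. Both AD-like animals lie outside the bar for every gene by the way the probe sets were chosen, and the lower ones reach signals of 4.68 to 113.

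The array holds other probe sets for some of these 24 genes. For 11 of the 24 genes at least 1 further probe set was kept, 18 in all. None of the 18 lay with both AD-like arrays beyond the young adult range on the same side, none passed an unadjusted p under 0.05, and 10 of the 18 differed in the same direction as the leading probe set. Of the 24 leading probe sets 11 have a suffix that marks probes shared by several transcripts. In 5 of these, those of TMEM161A, XPO1, POU3F3, IGKV1OR2-118 and FN1, it marks possible matches to unrelated transcripts, and 6 have the suffix for related ones. The other 13 genes were each measured by a single kept probe set.

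Of 23 kept genes of amyloid production, 2 had both AD-like animals above the young adult range and 2 had both below it. Over all genes these shares were 2.59% and 3.08%. Other genes of the list had 1 of the 2 animals outside the range. APP had the highest signal of its family, 14857 in AD-like F1 and 5415 in F2 against 3421 to 13811 in young adults (log2 difference 0.205, SE 0.57, unadjusted p = 0.726 in limma). F1 was above every young adult and F2 within their range. The β-secretase BACE1 gave 884 and 493 against 352 to 834 on its brightest probe set (log2 difference 0.14, SE 0.42), with F1 above the range. Its other 3 probe sets went in different directions, with log2 differences of -0.525, -1.32 and 0.96, and on the last both AD-like animals lay narrowly above the range, with 197.4 and 191.2 against 41.8 to 190.8. The α-secretase ADAM10 gave 3751 and 4276 against 1793 to 4137 (log2 difference 0.54, SE 0.42), with F2 above the range. PSEN2, a presenilin, gave 112 and 12.6 against 48.5 to 173, so that only F2 was low. The APP relative APLP2 lay below the range on its brightest probe set, with 1058 and 647 against 1103 to 1636 (log2 difference -0.71, SE 0.36, unadjusted p = 0.0742 in limma), but its 6 other probe sets overlapped. APBB1, also called Fe65, an adaptor that binds the tail of APP, gave 411 and 434 against 597 to 1147 (log2 difference -0.90, SE 0.38, unadjusted p = 0.0357 in limma). APBA1, another APP adaptor, gave 139 and 47.3 against 126 to 257 (log2 difference -1.03). In the whole list of the amyloid precursor family and secretases, 23 of 26 genes were kept. At the same threshold 0 of them were higher and 2 lower, and the median log2 difference was 0.08. Over all 8813 genes, with 1 probe set each, 0.613% were higher and 2.64% lower, and the median was 0.01.

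Tau itself, MAPT, gave 2468 in AD-like F1 and 981 in F2 against 1252 to 2361 in young adults (log2 difference -0.23, SE 0.43). F1 lay above and F2 below the young adult range. Of the 5 kept probe sets of MAPT, 2 were higher and 3 lower on average, and 0 had both animals beyond the range on the same side. GSK3B gave 6108 and 4590 against 3664 to 8984 on its brightest probe set, and CDK5 gave 320.2 and 285 against 252 to 676, both within the range. All 3 kept probe sets of GSK3B were lower on average. A dimmer one gave 873 and 456 against 582 to 1377, with F2 below the range. Over all genes 2.64% were lower and 0.613% higher at an unadjusted p under 0.05. Of 27 kept genes of tau and its kinases and phosphatases, 2 were lower and 0 higher. These were the tau kinase MARK4, with 912 and 243 against 670.5 to 1651, and PPP2R1A, the scaffold subunit of the phosphatase PP2A, with 411 and 76.9 against 392 to 576.5. On these probe sets AD-like F2 was low and F1 lay among the young adults. On the dimmer probe set of MARK4 both were below the range, with 43.4 and 58.6 against 64.9 to 152.5 (log2 difference -0.78, unadjusted p = 0.0827 in limma). The median of the list was 0.18 in F1 and -0.40 in F2, each relative to the young adult mean. Of the lipid carriers tied to Alzheimer risk, CLU gave 253 and 179 against 62.4 to 419 on its brightest probe set. Of its 3 kept probe sets 2 were higher and 1 lower on average. APOE gave 411 and 444.5 against 163 to 593 on its brighter probe set (log2 difference 0.14), and 218 and 272 against 291 to 641 on the other (log2 difference -0.625, SE 0.40, unadjusted p = 0.143 in limma). The 20 kept genes of brain lipid transport had a median of 0.09 with 0 called in either direction, and the 12 kept genes of cholesterol synthesis a median of -0.255 with 0 called.

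**Figure D3:**
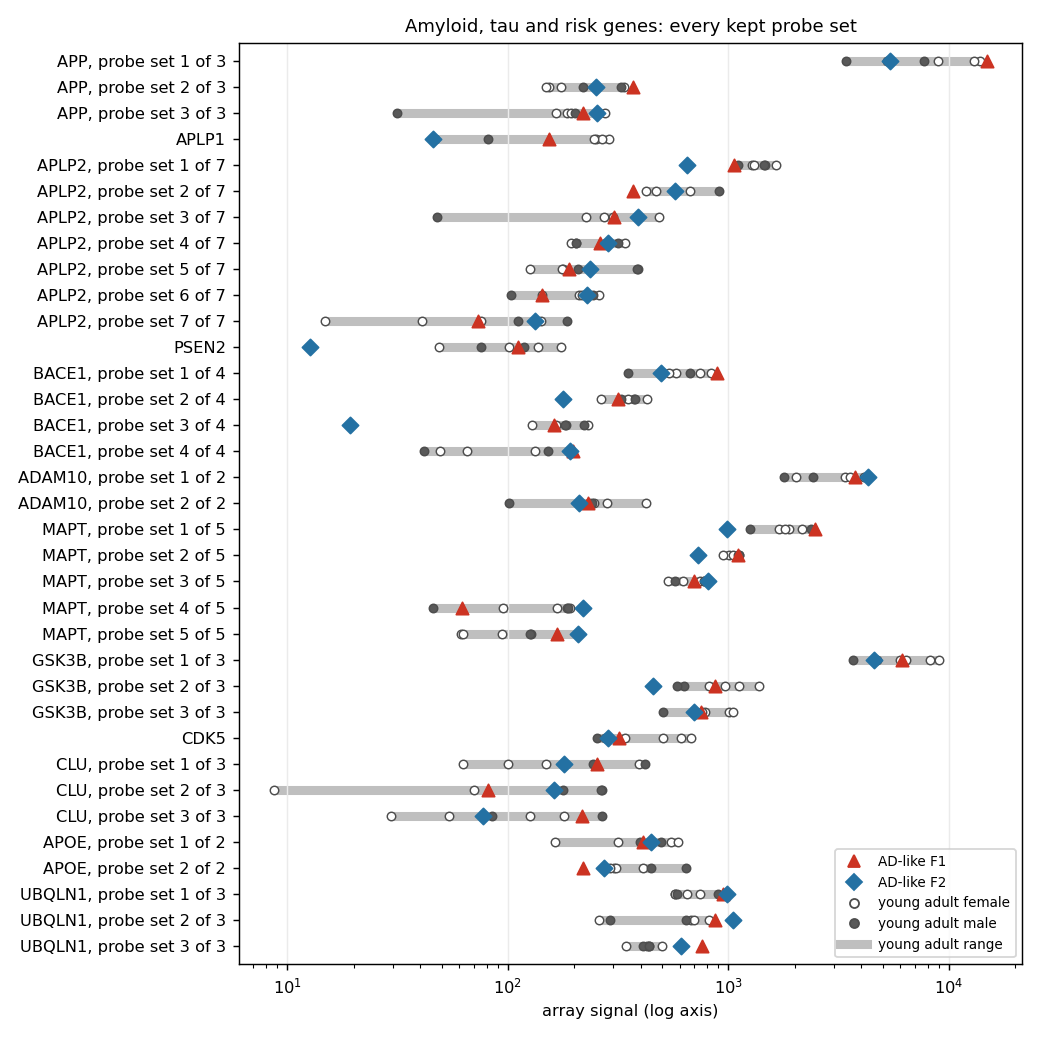
Signal on a log axis of every kept probe set of 12 amyloid, tau and risk genes in each animal, ordered within a gene by brightness, with symbols as in the plot of the leading genes. AD-like values lie inside and outside the young adult bars, and the probe sets of UBQLN1 at the bottom all have both AD-like animals to the right of the bar.

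Among these 12 genes UBQLN1 alone had all its probe sets outside the young adult range. It encodes ubiquilin 1, a shuttle that carries ubiquitinated proteins to the proteasome. Its first probe set gave 948 in AD-like F1 and 983 in F2 against 572 to 893 in young adults (log2 difference 0.54, SE 0.355, unadjusted p = 0.154 in limma). The second gave 870 and 1047 against 258 to 818 (log2 difference 0.865, SE 0.489, unadjusted p = 0.101). The last gave 756 and 612 against 342 to 498 (log2 difference 0.67, SE 0.345, unadjusted p = 0.0771). Both AD-like animals thus lay above all young adults on all 3 probe sets, but no p was under 0.05, and for the first the difference within the arrays without poly-A controls was 0.14. This gene was singled out by the study on these animals, and its probe sets measure the same transcript. In the list of ubiquilins and neuronal ubiquitin handling, 27 of 34 genes were kept, and both AD-like animals lay above the young adult range for 3 and below it for 0. Over all genes these shares were 2.59% and 3.08%. VCP, the ATPase that extracts ubiquitinated proteins, gave 782 and 505 against 229 to 475 (log2 difference 0.875, unadjusted p = 0.052 in limma), and differed by 0.13 on its other probe set. SQSTM1, the autophagy receptor p62, gave 75.5 and 23.6 against 41.5 to 174. Of 31 kept proteasome genes 3 lay above and 0 below the range, among them the core subunit PSMA3 with 871 and 914 against 131 to 699 and the ATPase subunit PSMC2 with 546 and 453 against 219.5 to 426, on both of its probe sets. No member of these 2 lists passed an unadjusted p under 0.05 and the list medians were 0.07 and 0.17. Of 30 kept chaperones 4 lay above and 1 below the range. HSPA13 was higher, with 132 and 145 against 42.3 to 83.35 (log2 difference 0.84, unadjusted p = 0.0422 in limma), and HSPA14 lower, with 142 and 47.7 against 144 to 258 (log2 difference -1.12, unadjusted p = 0.0202). HSP90AA1, the brightest chaperone, gave 8086 and 3332 against 1617 to 11176. Of 33 kept genes of autophagy and lysosomes, 0 were called and the median was 0.06.

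Among the 176 kept genes of 6 lists of synapses and excitability, 5 were lower (2.84%) and 0 higher at the unadjusted threshold, near the 2.64% and 0.613% of all genes. The 8 neuronal markers had a median of 0.65 in AD-like F1 and -0.61 in F2 relative to the young adult mean, both within the young adult range of -0.965 to 0.78. The summed marker signal was 66178 and 30220 against 22796 to 81053, and its part in the synaptic values was not tested. NLGN2, the neuroligin of inhibitory synapses, gave 364 in AD-like F1 and 482 in F2 against 581 to 1294 in young adults (log2 difference -1.10, SE 0.39, unadjusted p = 0.0159 in limma), while its second probe set differed by -0.07. NRXN2, a presynaptic partner of neuroligins, gave 623 and 249 against 593 to 1386 (log2 difference -1.18, SE 0.45). These 2 were lower and 0 higher among the 16 kept neurexins, neuroligins and related adhesion genes, whose median was -0.01. DLGAP3, a scaffold of excitatory synapses, gave 372 and 270 against 461 to 1460 (log2 difference -1.23, SE 0.45, unadjusted p = 0.0174), and was the only call among 34 kept glutamate receptors and scaffolds. The AMPA receptor GRIA2, the brightest of these, lay within the range, with 8930 and 9593 against 6444 to 15203. All 43 kept genes of vesicle release were uncalled, with a median of -0.065. Of the 23 kept genes of GABA signalling, 0 were called and the median was -0.19. Of 36 kept voltage-gated channel genes, 23 had a negative difference, 2 were lower and 0 higher at an unadjusted p under 0.05, and the median was -0.235. These 2 were KCNAB2, a regulator of potassium channels, with 29.0 and 20.8 against 48.2 to 298 (log2 difference -2.00, SE 0.56), and CACNA1H, a T-type calcium channel, with 199.8 and 107 against 199.8 to 348. In CACNA1H only F2 was clearly apart. The median of the channels was -0.09 in F1 and -0.39 in F2. Of the 28 kept calcium buffers and CaM kinases 0 were called, with CAMK2A at 1456 and 925 against 1359 to 4455.

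The 8 kept genes of the sodium pump and its modulators had the lowest median of the 40 lists, -0.41. It was -0.204 in F1 and -0.566 in F2, both below the young adult arrays, which reached down to -0.196, and -0.12 was found among arrays with poly-A controls. NKAIN1 was its only call, lower, against 2.64% of all genes. NKAIN2, of the same family, lay above the range instead, with 447.5 and 360.4 against 146.5 to 333 (log2 difference 0.68, unadjusted p = 0.14 in limma). The pump subunit ATP1B1 gave 31018 and 13903 against 14315 to 36840. GAP43, a growth-associated protein of axon terminals, lay below the young adult range on 2 of its 3 probe sets. The brighter gave 4935 and 4165 against 5750 to 11947 (log2 difference -0.77, SE 0.39, unadjusted p = 0.071 in limma), the next 731 and 1045 against 1090 to 2273, and the dimmest overlapped. Of the 23 kept genes of neurogenesis and immature neurons 0 were called. Of 40 kept genes of the neuronal cytoskeleton 0 were called, with a median of 0.03.

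Activity-regulated genes had a low median in 1 AD-like animal and not in the other. Of 26 kept immediate early genes, 4 were lower and 0 higher at an unadjusted p under 0.05, against 2.64% and 0.613% of all genes. In this list 19 had a negative difference and the median was -0.23. The median was 0.05 in AD-like F1 and -0.56 in F2. Among young adults it ranged from -0.63 to 0.26, and the lowest value belonged to M2. AD-like F2 and young adult M2 are the 2 arrays without poly-A controls. Between these 2 arrays the median was 0.16, and within the other 6 it was -0.02. DUSP1, a phosphatase of MAP kinases, gave 211 and 31.7 against 184 to 474 (log2 difference -1.65, unadjusted p = 0.0108 in limma). EGR4 gave 591 and 215 against 399 to 2204, and JUNB gave 192.5 and 151 against 168 to 571. KLF2 gave 272 and 175 against 297 to 596 and was the only one of the 4 below the range in both animals, although its dimmer probe set overlapped. EGR1, the brightest, gave 3006 and 4359 against 1291 to 15227. GADD45G, a stress-induced gene that acts in growth arrest and DNA demethylation, gave 21.6 and 16.5 against 54.5 to 272 (log2 difference -2.13, SE 0.48, unadjusted p = 0.000785 in limma). Both AD-like animals were low and all young adults higher, and GADD45G was the only call among 23 kept genes of p53 and cell stress.

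Of 44 kept genes in the lists of insulin, IGF and mTOR signalling and of neurotrophins, 3 were lower (6.82%) and 0 higher, against 2.64% and 0.613% of all genes. The calls among cAMP genes went both ways. IGFBP3, which binds insulin-like growth factors, gave 54.0 in AD-like F1 and 12.4 in F2 against 88.5 to 228 in young adults (log2 difference -1.70, SE 0.46, unadjusted p = 0.00306 in limma). IGF1 gave 76.8 and 45.75 against 93.3 to 187 (log2 difference -0.84, unadjusted p = 0.0464), while its second probe set differed by 0.02. These were the 2 calls, both lower, among 26 kept genes of insulin, IGF and mTOR signalling. NRG1, a ligand of ERBB4, gave 50.3 and 35.2 against 51.2 to 172 (unadjusted p = 0.0519 in limma), and ERBB4 itself 2248 and 1488 against 1116 to 2555. CNTFR, the receptor of ciliary neurotrophic factor, gave 291 and 106 against 263 to 581. Of 20 kept genes of neurotrophins and their receptors 2 were lower and 0 higher, CNTFR and again IGF1, which is in both lists. ADCY9, an adenylate cyclase that makes cAMP, was higher, with 316 and 243 against 27.5 to 153 (log2 difference 1.41, SE 0.52, unadjusted p = 0.0186 in limma). PDE4B, a phosphodiesterase that breaks cAMP down, was lower, with 13.1 and 99.0 against 86.6 to 374 (log2 difference -2.14, SE 0.59, unadjusted p = 0.00341). Its low value rested mainly on F1, since F2 lay above the lowest young adult, and without F1 the log2 difference was -1.15. CRTC2, a coactivator of CREB, was low in F2, with 241 and 21.9 against 217 to 562. Of 36 kept cAMP genes 1 was higher and 2 were lower, and none of the 16 kept genes of the RAS to ERK cascade was called.

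Of 111 kept genes in 3 lists of histone acetylation, nucleosome assembly and splicing, 2 were higher (1.8%) and 3 lower (2.7%), against 0.613% and 2.64% of all genes. HAT1, a histone acetyltransferase, gave 245 in AD-like F1 and 327 in F2 against 39.1 to 176 in young adults (log2 difference 1.11, SE 0.485, unadjusted p = 0.0409 in limma). KAT2B, another acetyltransferase, gave 575 and 350.8 against 137 to 314 (log2 difference 0.92, SE 0.41, unadjusted p = 0.0457). The deacetylase HDAC10 was lower through F2, with 124 and 12.7 against 105 to 155. Of 26 kept genes of histone acetylation 2 were higher and 1 lower. The histone gene H3-3A gave 109 and 43.8 against 115 to 472 and was the only call, lower, among 29 kept genes of nucleosome assembly. NAP1L1, a histone chaperone, was higher on the dimmest of its probe sets, with 207 and 221 against 55.05 to 136 (log2 difference 1.03, SE 0.39, unadjusted p = 0.0197 in limma), and overlapped on its 3 brighter ones. SF3B3, a splicing factor, gave 64.1 and 13.3 against 65.1 to 347 and was the only call, lower, among 56 kept hnRNPs and splicing factors.

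The kept genes of cytosolic ribosomal proteins all overlapped the young adults. Of the 28 large and 20 small ribosomal subunit proteins kept, 0 were called and 0 lay beyond the range on either side, with medians of 0.12 and 0.07. Over all genes 0.613% were called higher and 2.64% lower, and 2.59% lay above and 3.08% below the range. A count of 0 in lists of this size is near these shares. RPL37A gave 24066 and 19527 against 17600 to 34387, and RPS14 gave 15582 and 12400 against 7028 to 22751. Young adult M1 had the lowest level of both lists, at -0.48 and -0.79 relative to the young adult mean. Of 36 kept translation factors EEF1D was higher, with 210.2 and 268.5 against 24.5 to 164 (log2 difference 1.42, unadjusted p = 0.0211 in limma), and EIF3G lower. Among 44 kept mitochondrial ribosomal proteins 1 was higher and 2 were lower. MRPL33 gave 1290 and 1829 against 418 to 1273 (log2 difference 1.055, unadjusted p = 0.0392 in limma), whereas MRPS18B gave 112 and 36.8 against 113 to 350 (log2 difference -1.40, unadjusted p = 0.0115). Of 23 kept subunits of respiratory complex I 0 were called, with a median of 0.16. Of 33 kept subunits of complexes II to V only UQCR10, of complex III, was called, with 37.7 and 63.3 against 65.7 to 151. Of 22 kept genes of glycolysis 0 were called. In the redox list of 24 kept genes, GLRX, glutaredoxin, was lower with 167 and 41.2 against 179 to 294. The 7 kept metallothioneins had medians of 0.78 in AD-like F1 and -0.38 in F2 and overlapped the young adults.

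Calls among the glial, immune, vascular and matrix genes were all lower, and over all genes 0.613% were higher and 2.64% lower. GLUL, the glutamine synthetase of astrocytes, gave 3289 in AD-like F1 and 2466 in F2 against 3689 to 10949 in young adults (log2 difference -1.41, SE 0.45, unadjusted p = 0.00833 in limma). Its other 2 probe sets, dimmer, differed by -0.62 and 0.405 and overlapped. It was the only call among 20 kept astrocyte genes, and the water channel AQP4 lay within the range, with 3071 and 2959 against 668 to 5888. In the list of microglia, complement and antigen presentation only 13 of 44 genes were kept. All 13 had a positive difference, the median was 0.28, the highest of the 40 lists, and 0 passed an unadjusted p under 0.05. Of 26 further members with a probe set, too dim to be kept, 15 had a positive and 11 a negative difference, with a median of 0.09. The median was 0.56 in F1 and 0.27 in F2 against -0.21 to 0.52 in young adults, so that the groups overlapped, and between the 2 arrays without poly-A controls it was -0.04. These members were measured on the same arrays, so their signs are not independent. HLA-DMA, which loads peptides on class II molecules, gave 164 and 196 against 64.1 to 151 (log2 difference 0.78, unadjusted p = 0.0745 in limma). P2RY12, a receptor of resting microglia, gave 142 and 102 against 21.6 to 266. Of 20 kept myelin genes 0 were called. Of 12 kept vascular genes NOTCH3, a receptor of pericytes and vascular muscle, was lower, with 75.0 and 101 against 123 to 345.5 (log2 difference -1.25, unadjusted p = 0.012 in limma). Of 26 kept genes of the extracellular matrix FN1 and HAPLN4 were lower. The difference of HAPLN4 was -0.98 and turned to 0.237 between the 2 arrays without poly-A controls.

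**Figure D4:**
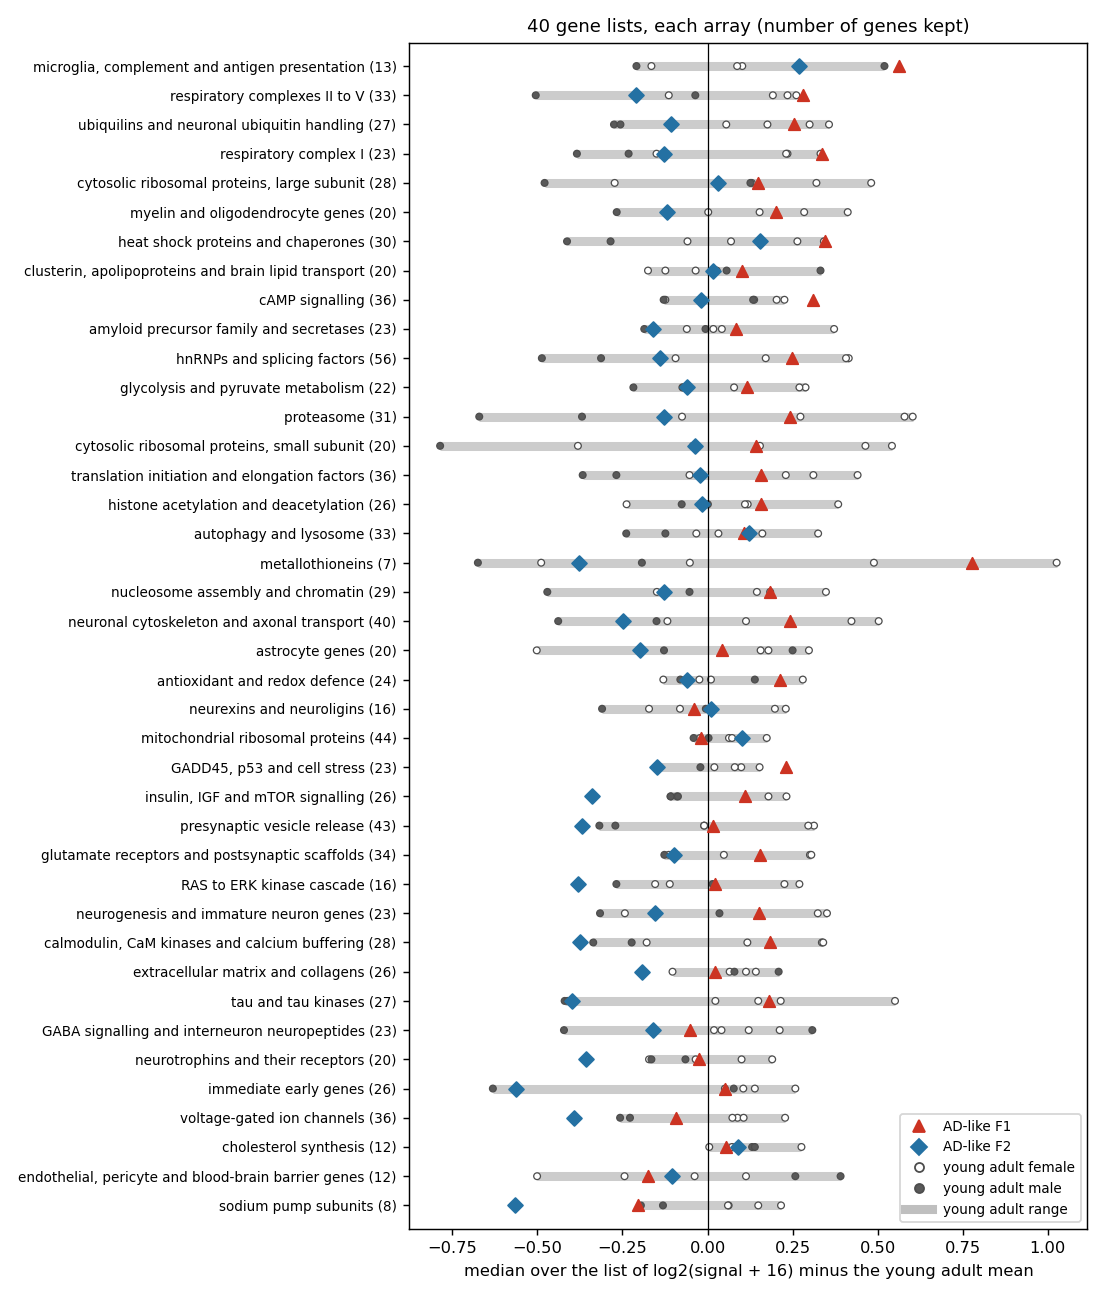
Median over each of 40 gene lists of log2(signal + 16) relative to the young adult mean, for every array, with AD-like F1 as triangles, AD-like F2 as diamonds and the 6 young adults as circles over a bar for their range. In 27 lists F1 lies above 0 and F2 below it, and in 1 list, the sodium pump at the bottom, both lie below the young adult bar.

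Across the 40 lists the AD-like animals lay on opposite sides of the young adult mean more often than on the same side. F1 was above 0 and F2 below it in 27 lists and the reverse held in 2, while both were above in 6 and both below in 5. The mean signal of the whole array was also higher in F1 than in F2, 197.2 against 163.6. Its part in the list levels was not tested. No list had both animals above the young adult arrays, and 1, the sodium pump, had both below. The list genes numbered 1412, of which 1016 were kept. Calls at an unadjusted p under 0.05 numbered 6 higher (0.591%) and 33 lower (3.25%), against 0.613% and 2.64% of all genes. Both AD-like animals lay above the young adult range for 36 (3.54%) and below it for 32 (3.15%), against 2.59% and 3.08% of all genes. These shares were near those of all genes.

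A list of 47 probe sets had been chosen earlier for differing among the groups of these same animals, so that its behaviour here is no independent evidence. Of these 46 were kept, 6 were higher and 4 lower in AD-like than in young adult animals at an unadjusted p under 0.05, and 0 passed the adjustment. Both AD-like animals lay above the young adult range for 10 and below it for 4, and the median log2 difference was 0.10. Over all 15000 probe sets 0.753% were called higher and 2.75% lower, and 2.75% lay above and 2.89% below the range. Larger shares in a list chosen on these animals are no result about its members. Besides ZBTB11, HAT1, KAT2B and NAP1L1, the higher calls included CCDC47, a protein of the endoplasmic reticulum, with 480 and 551 against 82.4 to 362 (log2 difference 1.24, unadjusted p = 0.0294 in limma), while its other probe set differed by -0.07. Besides PDE4B and CACNA1H, the lower calls were SLC48A1, a haem transporter, with 122 and 201 against 299 to 459 (log2 difference -1.19, SE 0.37, unadjusted p = 0.00671), and TRIM8, a ubiquitin ligase, with 369 and 208 against 422 to 589 (log2 difference -0.90, unadjusted p = 0.0299). The 3 other probe sets of TRIM8 overlapped, with log2 differences of -0.68, 0.58 and 0.19, and the other of SLC48A1 overlapped with -0.66. SNX18, of endosomal trafficking, was nearly equal in both AD-like animals, with 614 and 621 against 358 to 476 (log2 difference 0.58, unadjusted p = 0.113 in limma). FCRL2 was too dim to be kept and gave 132 and 188 against 6.53 to 64.3. Calumenin, CALU, gave 349 and 339 against 326 to 406, and the ribosomal protein RPS21 gave 1742 and 1437 against 1207 to 2494, both within the young adult range.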

How the data were processed

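Temporal cortex RNA of 8 animals had been labelled and hybridized to human arrays. The intensity values deposited by the authors are linear signals, normalized with GCOS 1.2 according to the submitters' processing notes. Because lemur transcripts match human probes to varying degrees, levels were compared between animals within a probe set only. Detection calls were not used here.

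Of 54613 probe sets other than controls, the 15000 with the highest mean of log2(signal + 16) over the 8 arrays were kept. Of these 12745 carried 1 gene symbol, 580 several and 1675 none, according to the platform annotation. This filter included the AD-like arrays, so a probe set dim in young adults could be kept through high AD-like signals alone. Among list genes EEF1D and HSPA13 were kept in this way. Counts of higher probe sets and of those above the young adult range include such probe sets. AD-like and young adult animals were compared with limma 3.58.1 in R 4.3.3, which assumes that the 2 AD-like arrays vary as the young adults do, with Benjamini-Hochberg adjustment over the 15000. A call in the text is an unadjusted p under 0.05 in limma. After adjustment the count was 0 over all probe sets, and so for every list. The scripts were tested on simulated data. Properties of the arrays were tested by exact permutation, two-sided. The number of arrays limits the precision. The limma p values set each difference against a spread estimated mainly from the young adults and moderated across probe sets. They say little about the spread among AD-like animals.

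Gene lists, 40 of pathways and 12 of cell type markers, were described by counts and medians, with 1 probe set per gene, the brightest. Members and lists were chosen with earlier results of these data known. Named genes are the 12 higher and 12 lower probe sets with the smallest p among those outside the young adult range, 4 members of each list by p or brightness, a set of amyloid, tau and risk genes, of which 12 are reported here, and a list of 47 probe sets, of which 39 carried 1 symbol. KLF2 was named after its values were seen, as 1 of 4 calls in its list. Genes without a symbol in the table are not reported here.

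Equal numbers in the labels of AD-like and young adult animals were not taken to pair them. Alternatives covered the offset, normalization, filter, variance model, sex, control RNA, the GAPDH 3′ to 5′ ratio, the label numbers as a block, the methods' t-test and leaving out each animal. The permutation method SAM that the authors had used was not run here.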

Additional observations from a re-analysis of the deposited data

Results flagged for a closer look

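In 6 of 129 groups of 6 young adult values, 1 animal lay far from the others, about as many as the 1 in 20 that chance gives. Young adult M1 had a log2 ratio of 0.681 for the 3′ to the 5′ probe set of GAPDH, the highest of the young adults, and a MAP2K1 signal of 176.1, the lowest. Young adult M2 had the lowest level of the immediate early genes, -0.6311 relative to the young adult mean, and the lowest HNRNPH1 signal, 493.2. Young adult F4 had the lowest level of the astrocyte markers, -0.5378, and the lowest HAT1 signal, 39.14. HAT1 and the immediate early genes are described above with these animals included.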

How the results depend on the processing

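The number of probe sets passing the adjustment was 0 with every alternative except the methods' t-test on log2 signals, which gave 1, a probe set without a gene symbol (adjusted p = 0.027). The counts at an unadjusted p under 0.05, 113 higher and 412 lower, moved more. Without a filter they were 1393 and 971, with the 8000 brightest probe sets 58 and 214, and with the methods' t-test on linear signals 336 and 218. The count of higher probe sets was 57 after median centring, 190 with the methods' t-test on log2 signals, 306 with sex as a covariate, 307 in females only, 343 with the GAPDH ratio as a covariate and 51 among arrays with poly-A controls. Leaving out each animal gave 38 to 223 higher, 350 to 744 lower and 0 after adjustment. Probe sets with both AD-like arrays above and below the young adult range, 413 and 433, numbered 1924 and 1419 without a filter, 196 and 243 among the 8000 brightest, 1104 and 1081 in females only, and 2091 and 2088 over arrays with poly-A controls, where the AD-like group is a single array. After median centring 271 lay above. Leaving out each animal gave 503 to 2144 above and 538 to 2348 below.

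With the label numbers as a replicate block the counts were 592 higher, 673 lower and 0 after adjustment. By pairing, deviations of same-numbered animals from their group means correlated at 0.226 for F1 and -0.274 for F2. With 2 AD-like arrays these deviations are mirror images. The 2 correlations are thus not separate checks and cannot decide whether the numbers pair animals. Between the 2 arrays without poly-A controls, 43 of 247 named probe sets had the other sign, among them EGR1 (1.743 against -0.794). Of the 63 called at the unadjusted threshold 1 did, HAPLN4, at 0.237. The calls were made with these 2 arrays included, and both AD-like arrays beyond the young adult range fix the sign. This count is therefore no check of the calls. Across all alternatives, list medians moved by more than the spread of young adults in 110 cases and did not in 1241, 28 of the 110 with the block. With 2 AD-like arrays, small differences cannot be resolved. The causes of these shifts were not tested.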
